A study of Mus musculus with 39 samples.

Results

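The 39 genes described here encode proteins that carry a cell through mitosis: the cyclins and kinases of mitotic entry, the spindle checkpoint, the triggers of anaphase, the centromere and kinetochore, the chromosomal passenger complex, the kinesin motors, the factors of spindle assembly and the machinery of cytokinesis, together with the proliferation marker Mki67 and the topoisomerase Top2a. They were picked out by name, each symbol being matched to its Ensembl gene in the count table. All 39 of 39 symbols matched, out of 53379 genes in the table, and all 39 passed the filter on low counts that left 22061 genes for testing.

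RNA was sequenced in bulk from macrophages sorted from the brains of C57Bl/6 mouse embryos, with no treatment or engineered allele named. The sorted populations were border-associated macrophages (BAM), found in the meninges, choroid plexus and perivascular spaces, and microglia, the macrophages of the brain tissue itself. BAM had 4, 3, 3, 3, 3 and 4 libraries at embryonic days E10.5, E11.5, E12.5, E14.5, E16.5 and E18.5, and microglia had 4, 3, 3, 2, 3 and 4. The labels do not say whether replicates came from separate litters or how many embryos each holds, and give no sort gates, so p-values measure only the spread between these samples.

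Library totals ran from 10.7 to 47.2 in units of 1000000 counts, with a median of 22.4, and the members had between 81 and 24061 counts in every library. Sorted identity was clear at both late stages: all 8 BAM markers and none of 8 microglia markers were higher in BAM at E16.5 and at E18.5, and all 8 microglia markers were lower. Library numbers fell into a pair of series, R10 with 16 libraries and R8 with 23. Every E10.5 and E11.5 library and 1 E18.5 library of each population (replicate 1) was of series R10, and every other library was of series R8. The step between E11.5 and E12.5 therefore cannot be told apart from the change of series and was not tested.

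Mitosis genes are transcribed late in the cell cycle, and their messages are broken down or diluted after division. Their summed level in a population therefore depends in part on how many of its cells are near division, which was not measured here. Brain macrophages are seeded early in the embryo and multiply in place, and the cyclin B and Cdk1 complex, switched on by the phosphatase Cdc25c, starts each division. The genes are held silent in resting cells and switched on in dividing ones through a promoter element called CHR, usually accompanied by CCAAT boxes, at which the DREAM and MuvB protein complexes and the factor NF-Y act.

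RefSeq promoter sequences (build GRCm38.p6, 250 bases before to 50 after the start site) were matched to 32 of the 39 members, and Tpx2, Cdc25c, Ccna2, Kif20a, Incenp, Spc24 and Aurkb had no match. A CHR element, searched as TTTGAA or TTCGAA on either strand, lay with its centre within 100 bases of the start site in 25 of 32 member promoters (78.1%), against 8.89% of 27018 genes with a promoter of the same length. The first listed promoter of each gene was used. A CCAAT box, searched as CCAAT on either strand, lay anywhere in the window in 24 of 32 (75%) against 37.9% of all genes, and at least 2 boxes in 53.1% against 12.2%. Of 33 DNA replication genes 63.6% held a box and 36.4% at least 2. Of 52 other mitosis genes 67.3% held a box and 36.5% at least 2, and 59.6% had a CHR element within 100 bases of the start site. Both elements lay within 100 bases of the start site in 62.5% of member promoters and in 2.14% of all. The nearest CHR element began 103 bases before to 41 bases after the start site, at or after it in 17 promoters and before it in 8. An E2F-type element, searched as TTTCGCGC, TTTCCCGC or TTTGGCGC on either strand, was in 1 of 32 member promoters (3.12%), against 42.4% of 33 DNA replication genes and 1.91% of all. No member promoter was tested for binding here, and a match describes letters only.

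The 6 promoters below are shown because each comes from another functional group, holds a CHR element and has no fewer CCAAT boxes near the start site than any other CHR promoter of its group, ties going to the first symbol in alphabetical order. Each is given 5′ to 3′ on the strand of its gene, with CHR elements and CCAAT boxes in capitals.
Ccnb2, a B-type cyclin (chr9:70421505-70421804, minus strand): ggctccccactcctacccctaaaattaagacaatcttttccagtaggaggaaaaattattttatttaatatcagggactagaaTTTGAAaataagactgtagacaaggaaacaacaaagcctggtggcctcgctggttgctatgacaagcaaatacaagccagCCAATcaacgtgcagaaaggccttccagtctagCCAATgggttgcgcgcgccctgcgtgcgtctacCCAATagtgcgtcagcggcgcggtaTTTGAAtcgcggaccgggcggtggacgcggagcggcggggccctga
Top2a, the DNA topoisomerase of chromosome condensation (chr11:99024140-99024439, minus strand): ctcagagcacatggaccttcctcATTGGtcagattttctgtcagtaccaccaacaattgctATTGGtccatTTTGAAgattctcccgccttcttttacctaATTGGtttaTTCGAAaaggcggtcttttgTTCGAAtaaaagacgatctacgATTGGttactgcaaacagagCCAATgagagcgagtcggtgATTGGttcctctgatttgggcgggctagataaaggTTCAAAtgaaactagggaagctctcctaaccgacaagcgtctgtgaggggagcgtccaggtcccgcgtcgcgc
Bub1, a checkpoint kinase (chr2:127831810-127832109, minus strand): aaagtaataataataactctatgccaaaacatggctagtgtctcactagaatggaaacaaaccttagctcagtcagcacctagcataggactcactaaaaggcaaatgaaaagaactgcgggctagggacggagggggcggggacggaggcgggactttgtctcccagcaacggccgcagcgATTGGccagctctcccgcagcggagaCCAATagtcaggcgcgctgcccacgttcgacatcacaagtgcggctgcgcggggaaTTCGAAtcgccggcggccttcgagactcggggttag
Cdca8, a subunit of the chromosomal passenger complex (chr4:124936868-124937167, minus strand): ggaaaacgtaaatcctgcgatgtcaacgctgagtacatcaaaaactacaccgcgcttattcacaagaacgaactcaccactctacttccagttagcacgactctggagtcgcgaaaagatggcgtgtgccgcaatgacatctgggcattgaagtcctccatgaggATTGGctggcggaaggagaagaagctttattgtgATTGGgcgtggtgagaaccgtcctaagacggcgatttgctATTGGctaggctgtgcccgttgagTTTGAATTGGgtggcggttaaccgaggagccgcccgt
Hmmr, a spindle protein (chr11:40733388-40733687, minus strand): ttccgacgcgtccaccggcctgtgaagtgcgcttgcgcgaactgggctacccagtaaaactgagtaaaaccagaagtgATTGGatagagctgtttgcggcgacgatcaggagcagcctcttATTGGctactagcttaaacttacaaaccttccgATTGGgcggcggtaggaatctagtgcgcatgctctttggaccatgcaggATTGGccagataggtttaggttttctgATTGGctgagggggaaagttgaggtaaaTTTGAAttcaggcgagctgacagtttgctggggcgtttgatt
Ect2, an activator of the cytokinesis GTPase RhoA (chr3:27153829-27154128, minus strand): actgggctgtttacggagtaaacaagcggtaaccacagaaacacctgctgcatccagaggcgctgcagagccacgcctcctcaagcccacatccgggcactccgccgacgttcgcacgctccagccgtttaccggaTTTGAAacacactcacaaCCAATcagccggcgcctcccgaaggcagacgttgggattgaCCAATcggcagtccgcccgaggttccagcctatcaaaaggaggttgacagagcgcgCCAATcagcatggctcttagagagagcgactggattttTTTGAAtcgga
In Ccnb2 one CHR element begins at base 5 of the transcript, counted as 1 at the start site, and the other begins 167 bases before the start site, while the 3 CCAAT boxes begin 87, 54 and 21 bases before it. In Cdca8 the CHR element and the last of 4 CCAAT boxes share a base. The 5 members with a promoter sequence and neither motif were Birc5, Mad2l1, Nuf2, Nusap1 and Pttg1.

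**Figure D1:**
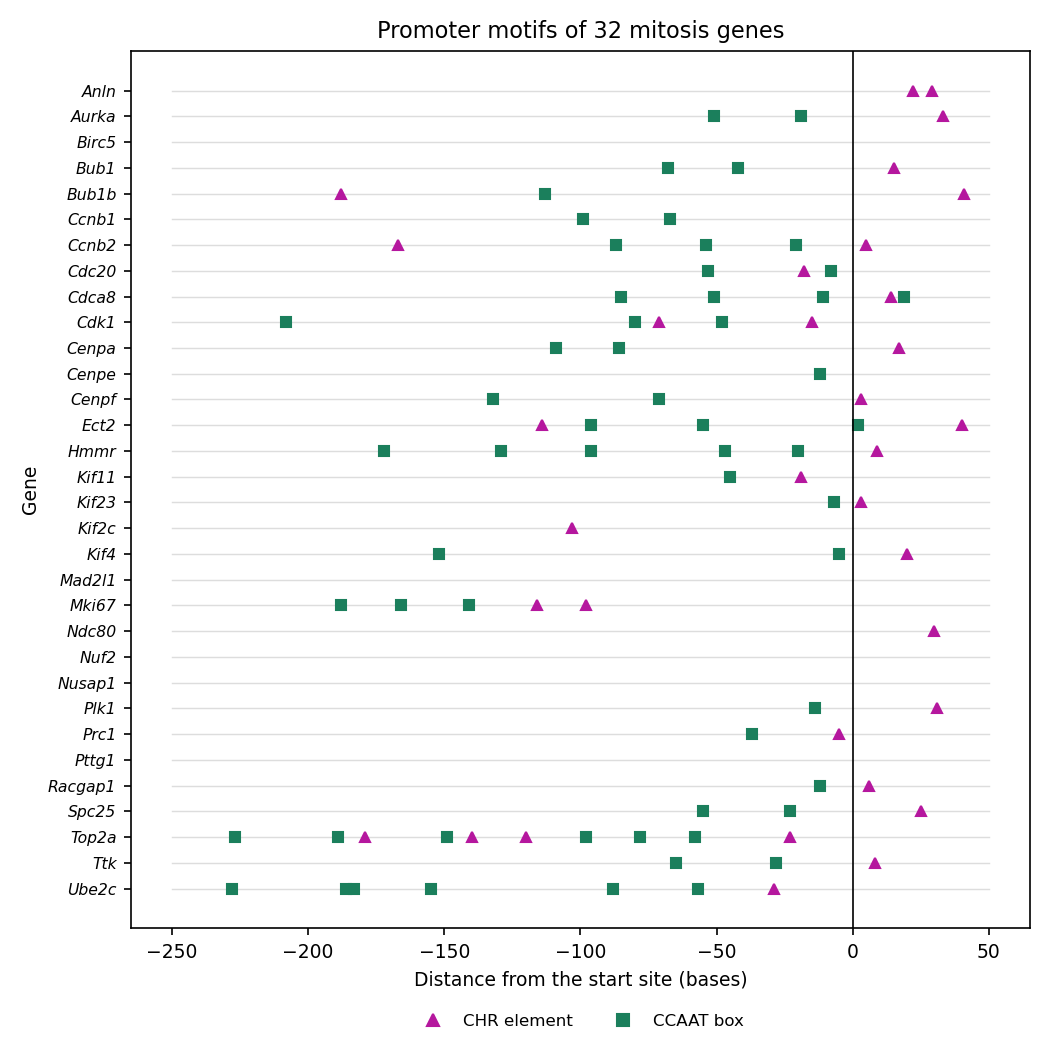
Position of CHR elements (triangles) and CCAAT boxes (squares) in the promoters of 32 mitosis genes, as distance in bases from the start site at 0. CHR elements cluster around the start site, and CCAAT boxes lie mostly before it.

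The mitosis genes took up their largest share of the RNA at the earliest stage in both populations and a far smaller one later. Levels are given as CPM, the count of a gene per 1000000 counts of its library. The 39 members together reached 8002 ± 334, 6644 ± 489, 4983 ± 422, 3338 ± 112, 3100 ± 175 and 2641 ± 354 CPM in BAM from E10.5 to E18.5 (mean ± SD, n = 4, 3, 3, 3, 3 and 4). In microglia they reached 7577 ± 222, 5524 ± 467, 3961 ± 112, 3722 ± 110, 2347 ± 183 and 3421 ± 372 CPM (n = 4, 3, 3, 2, 3 and 4). The BAM mean was lower at each successive stage, whereas the microglia mean was lowest at E16.5 and higher again at E18.5. This order crosses the change of library series. At E18.5 the R10 library held 3158 CPM in BAM, against an R8 mean of 2468 CPM. In microglia it held 3853 CPM, against 3277 CPM. Within series R10, these E18.5 libraries, 1 of each population, lay below every E10.5 library (at least 7747 CPM in BAM and 7348 CPM in microglia). In bulk RNA, fewer dividing cells and less of these messages per cell cannot be told apart.

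**Figure D2:**
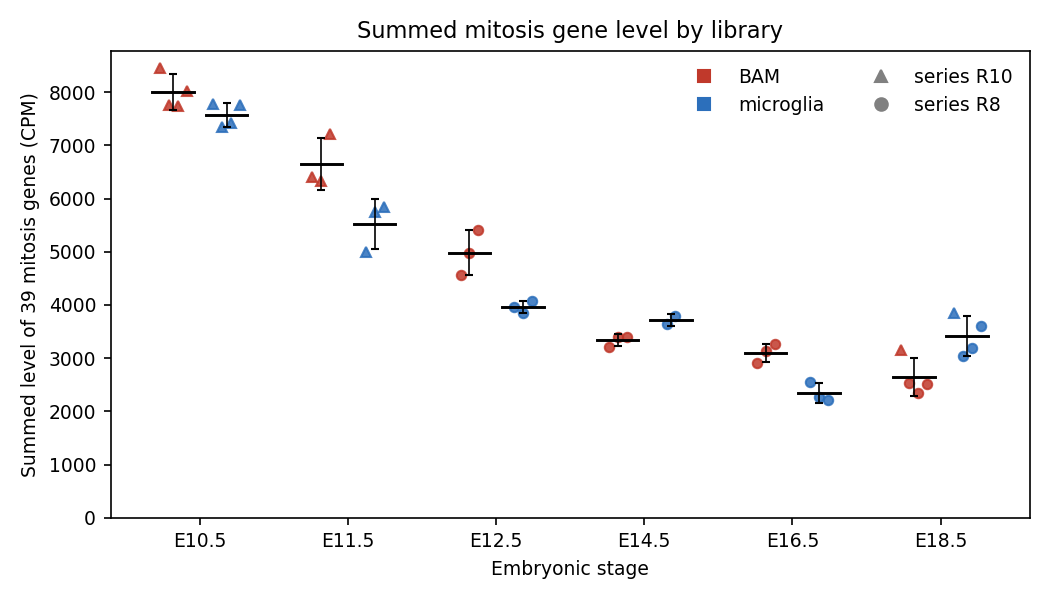
Summed level of the 39 mitosis genes in each library (CPM, y axis) by embryonic stage (x axis), BAM left of microglia, with the group mean as a line and the SD as a bar, and triangles for series R10, circles for series R8. The 3 BAM libraries of E16.5 (2912 to 3258 CPM) lie above the 3 microglia libraries (2214 to 2556), and at E18.5 the microglia mean lies above the BAM mean.

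Single genes followed the sum closely. In BAM, 34 of 39 members had their lowest group mean at E18.5 and 35 their highest at E10.5. In microglia, 38 of 39 had their lowest group mean at E16.5 and 37 their highest at E10.5. These rankings also cross the change of library series. The highest of the 12 group means was 1.54 times the lowest for Pttg1, 6.32 times for Ccnb1 and 3.74 times for the median member. Pttg1, which encodes securin, the inhibitor of the enzyme that parts sister chromatids, was the one member whose lowest microglia mean was not at E16.5, having its highest mean there and its lowest at E14.5. Cenpf, a large outer kinetochore protein, came next, at 1.70 times, and had its highest microglia mean at E12.5. Per kilobase of annotated exon and averaged over the groups, the most abundant member was the anaphase activator Cdc20 (96.6 CPM per kilobase), followed by Ccnb2 (84.4) and the passenger complex scaffold Incenp (72.1), and the least abundant was the checkpoint kinase Ttk (5.39).

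The first decline was tested between E11.5 and E10.5, where all libraries belong to series R10. In microglia 15 of 39 members fell and none rose, while 3.02% of all tested genes fell and 5.24% rose (edgeR quasi-likelihood test, Benjamini-Hochberg adjusted over all tested genes, called at 0.05, here and throughout). Aurka, the kinase that matures centrosomes, measured 129, 158 and 113 CPM in E11.5 microglia, against 283, 242, 249 and 248 CPM at E10.5. All E11.5 libraries lay below all E10.5 libraries, and Aurka fell by 0.91 ± 0.16 on the log2 scale (SE, adjusted p = 0.000146). Ccnb2 fell by 0.87 ± 0.15 (adjusted p = 0.000137) and Cdca8, the passenger subunit also called borealin, by 0.79 ± 0.16 (adjusted p = 0.000794). In BAM only Aurka fell, by 0.54 ± 0.15 (adjusted p = 0.0352), and no member rose, while 1.44% of all genes fell and 2.98% rose. The median member changed by -0.22 in BAM and -0.40 in microglia, and whether these steps differ between the populations was not tested. Leaving out microglia E10.5 replicate 1 or E11.5 replicate 3 gave 8 microglia calls, and the Aurka call in BAM was lost without any of BAM E10.5 replicates 1, 2 and 3 or E11.5 replicates 1 and 2.

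The second decline was tested between E16.5 and E12.5, within series R8. In BAM 26 of 39 members fell and none rose, while 1.95% of all genes fell and 2.75% rose. In microglia 26 of 39 also fell and none rose, while 2.18% of all genes fell and 1.83% rose. In BAM the steepest were Aurka (-1.17 ± 0.17, adjusted p = 1.62e-05), Ccnb1 (-1.10 ± 0.18, adjusted p = 0.000126) and Cdca8 (-1.01 ± 0.17, adjusted p = 0.000134). Ccnb1 measured 93.4, 94.8 and 126 CPM in E16.5 BAM, against 237, 212 and 260.5 CPM at E12.5. In microglia the steepest were Spc24, a subunit of the kinetochore complex that grips microtubules (-1.25 ± 0.26, adjusted p = 0.00283), the chromokinesin Kif4 (-1.13 ± 0.22, adjusted p = 0.00185) and Ccnb1 (-1.08 ± 0.18, adjusted p = 0.000254). Ccnb1 measured 94.7, 76.7 and 89.5 CPM in E16.5 microglia, against 199, 168 and 200.4 CPM at E12.5. In both populations every E16.5 library lay below every E12.5 library for Ccnb1. The BAM count dropped to 8 without E16.5 replicate 1, 12 without E16.5 replicate 2 and 13 without E12.5 replicate 2 or 3, while the microglia count stayed between 18 and 23.

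**Figure D3:**
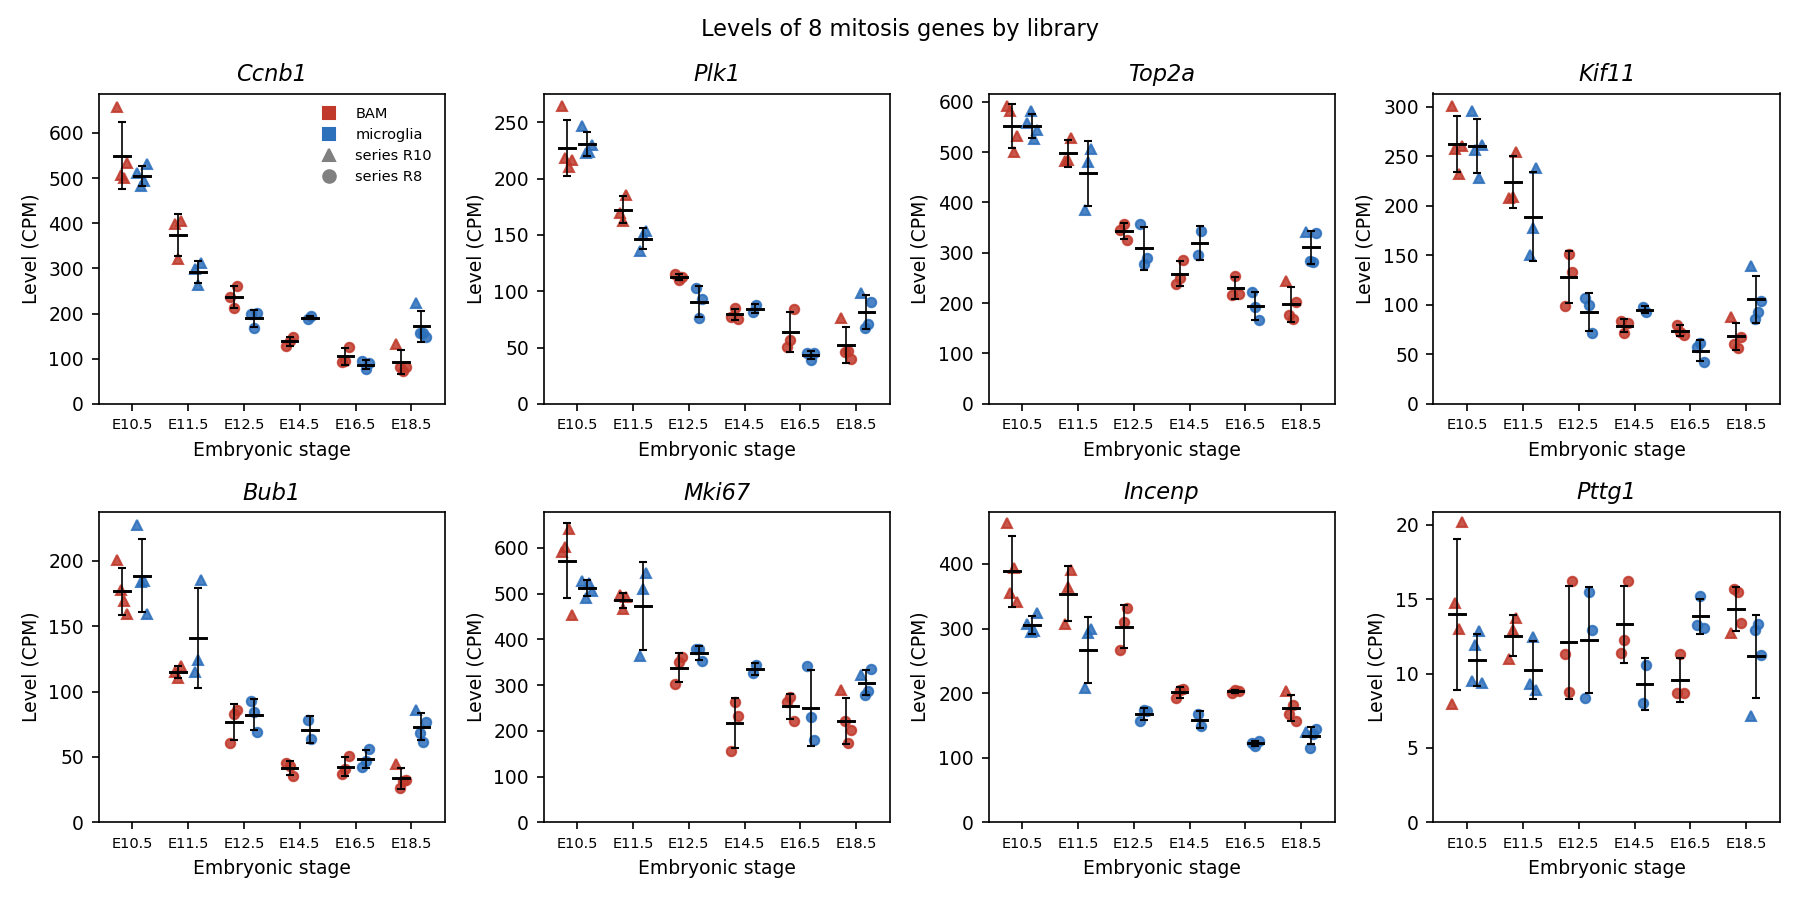
Levels of 8 mitosis genes in every library (CPM) by stage, BAM left of microglia, with group means as lines, SDs as bars and the library series as symbol. Ccnb1, Plk1, Top2a, Kif11 and Bub1 have higher means in microglia than in BAM at E18.5, Incenp has a higher mean in BAM at every stage, and Pttg1 stays between 7.14 and 20.2 CPM.

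Before E16.5 few members passed the test between the populations, although most values leaned towards BAM at E11.5 and E12.5. The median member differed by 0.07, 0.29, 0.39 and -0.002 on the log2 scale at E10.5, E11.5, E12.5 and E14.5. Positive values numbered 24, 36, 35 and 19 of 39 at these stages. At E10.5 no member passed the edgeR test in either direction, against 2.32% of all genes higher and 2.16% lower in BAM. At an unadjusted p under 0.05, a threshold at which all genes were not counted, 3 members were higher and none lower. DESeq2 called 1 member higher, among 850 genes higher in all. All BAM libraries lay above all microglia libraries for 5 members and below them for none, against 3.60% and 3.83% of all genes. At E11.5, 3 of 39 were higher in BAM and none lower, against 2.84% and 3.83% of all genes: Spc25 (0.68 ± 0.17, adjusted p = 0.00726) and the anaphase ubiquitin enzyme Ube2c (0.64 ± 0.19, adjusted p = 0.038), with the checkpoint protein Mad2l1 (0.63 ± 0.18, adjusted p = 0.0263). The libraries did not overlap for 16 members, all higher in BAM, where 8.78% of all genes lay above and 8.93% below. At E12.5, 6 of 39 were higher and none lower, against 4.12% and 4.42% of all genes, led by Incenp (0.87 ± 0.14, adjusted p = 2.04e-05), Mad2l1 (0.64 ± 0.18, adjusted p = 0.0178) and Aurkb, the kinase of the passenger complex (0.62 ± 0.16, adjusted p = 0.00873), with Prc1, Kif20a and Nuf2. The libraries did not overlap for 19 members, all higher in BAM, where 11.4% of all genes lay above. Incenp measured 266, 309 and 332 CPM in E12.5 BAM, against 157, 174 and 172 CPM in microglia, and it was the only one of the 6 that was called under every alternative run. At E14.5 the one call was Bub1, lower in BAM by -0.70 ± 0.22 (adjusted p = 0.0396), where 3.93% of all genes were higher and 3.25% lower, at 45.6, 43.2 and 35.4 CPM against 78.0 and 63.7 CPM in microglia. All BAM libraries of E14.5 lay below both microglia libraries for 15 members and above them for 4, compared with 20.9% and 14.3% of all tested genes. The E11.5 count was 0 without microglia replicate 3 and 1 without BAM replicate 2. The Bub1 call at E14.5 was lost without either microglia library and without BAM replicate 2 or 3. At E12.5 the count was 2 without BAM replicate 2 or 3 and 3 without microglia replicate 2.

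At E16.5 the mitosis genes stood higher in BAM. Of 39 members 16 were higher and none lower, while 7.09% of all tested genes were higher in BAM and 6.74% lower. The median member differed by 0.46 on the log2 scale, against -0.09 for all genes, and 36 of 39 values were positive. All 3 BAM libraries lay above all 3 microglia libraries for 23 members, and below them for Pttg1 alone, compared with 14.1% and 19.3% of all tested genes. The higher members came from the entry group (4 of 7), the passenger complex (3 of 4), cytokinesis (3 of 4), the checkpoint (2 of 4), the kinesins (2 of 5), the kinetochore (1 of 7) and anaphase promotion (1 of 3).

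Among the drivers of entry, Ccnb2 measured 94.1, 105 and 122 CPM in E16.5 BAM, against 62.0, 57.2 and 55.9 CPM in E16.5 microglia. Its log2 difference was 0.92 ± 0.16 (adjusted p = 4.4e-05), the largest of the 39. Cdk1, the kinase that B-type cyclins activate, measured 149, 163 and 154 CPM in BAM, against 87.4, 88.4 and 88.6 CPM in microglia (0.86 ± 0.19, adjusted p = 0.000863). The groups did not overlap for either gene. Plk1, the polo kinase of mitotic entry, measured 50.7, 56.6 and 83.8 CPM in BAM, against 45.1, 38.9 and 45.5 CPM in microglia (0.61 ± 0.19, adjusted p = 0.0225). Its groups did not overlap, but BAM replicate 3 stood well above the other two. Ccna2, cyclin A2, was also higher (0.70 ± 0.14, adjusted p = 0.00046). Ccnb1 differed by 0.32 ± 0.18 (adjusted p = 0.281) and its groups overlapped, so the B-type cyclins were not called alike.

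In the checkpoint, Mad2l1 measured 44.8, 56.7 and 61.8 CPM in E16.5 BAM, against 28.7, 28.5 and 32.9 CPM in microglia (0.91 ± 0.18, adjusted p = 0.000412). In the passenger complex, Incenp measured 200.4, 205 and 204 CPM in BAM, against 123, 118 and 126 CPM in microglia (0.78 ± 0.14, adjusted p = 7.6e-05). Both genes were separated by wide gaps between the groups. Birc5, the subunit known as survivin, was also higher (0.79 ± 0.23, adjusted p = 0.0177), and so was Aurkb, at 84.6, 91.4 and 112 CPM in BAM against 78.1, 63.0 and 74.8 CPM in microglia (0.46 ± 0.16, adjusted p = 0.0478). Ndc80, the kinetochore subunit that binds microtubules, measured 32.6, 47.7 and 38.8 CPM in BAM, against 26.7, 30.3 and 17.1 CPM in microglia (0.74 ± 0.18, adjusted p = 0.0026). Every BAM library exceeded every microglia library for these members.

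For cytokinesis, Ect2 (0.77 ± 0.21, adjusted p = 0.00953), its partner Racgap1 (0.57 ± 0.16, adjusted p = 0.0123) and the midzone protein Prc1 (0.54 ± 0.18, adjusted p = 0.0421) were higher in BAM, as was Kif23, the motor that works with Racgap1 at the midzone (0.77 ± 0.20, adjusted p = 0.00532). Anln, the contractile ring scaffold anillin, measured 53.9, 60.9 and 62.2 CPM in BAM, against 44.9, 40.5 and 47.3 CPM in microglia, without passing the test (0.46 ± 0.19, adjusted p = 0.109). Neither Mki67 nor Top2a passed. Top2a measured 217, 255 and 217 CPM in BAM, against 223, 192 and 167 CPM in microglia (0.29 ± 0.13, adjusted p = 0.164). Mki67 measured 264, 275 and 222 CPM in BAM, against 343, 230.4 and 180.0 CPM in microglia, a wide spread (0.07 ± 0.19, adjusted p = 0.912). For both genes the highest microglia library, replicate 1, reached into or past the BAM range. Tpx2 measured 72.4, 72.6 and 102 CPM in BAM, against 69.5, 62.7 and 50.1 CPM in microglia, a narrow separation (0.50 ± 0.18, adjusted p = 0.0681). Cdc20 measured 105, 92.3 and 107 CPM in BAM, against 76.2, 70.9 and 96.5 CPM in microglia (0.37 ± 0.18, adjusted p = 0.212). Cenpf measured 94.7, 81.7 and 77.3 CPM in BAM, against 83.4, 64.8 and 53.7 CPM in microglia (0.38 ± 0.14, adjusted p = 0.0756). Cdc20 and Cenpf overlapped between the groups. The E16.5 count of 16 dropped to 7 without BAM replicate 3, 9 without microglia replicate 2 and 10 without microglia replicate 1. Ccna2, Ccnb2, Cdk1, Incenp, Kif23, Mad2l1 and Ndc80 were called under every alternative run.

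At E18.5 the order was the opposite. Of 39 members 22 were lower in BAM and none higher, while 8.75% of all tested genes were lower and 6.70% higher. The median member differed by -0.49 on the log2 scale, against 0.01 for all genes, and 34 of 39 values were negative. All 4 BAM libraries lay below all 4 microglia libraries for 11 members and above them for Incenp alone, compared with 9.27% and 12% of all tested genes. The lower members came from the entry group (5 of 7), the checkpoint (3 of 4), the kinesins (3 of 5), the kinetochore (3 of 7), anaphase promotion (2 of 3), spindle assembly (2 of 3), the passenger complex (1 of 4) and cytokinesis (1 of 4), with Mki67 and Top2a.

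**Figure D4:**
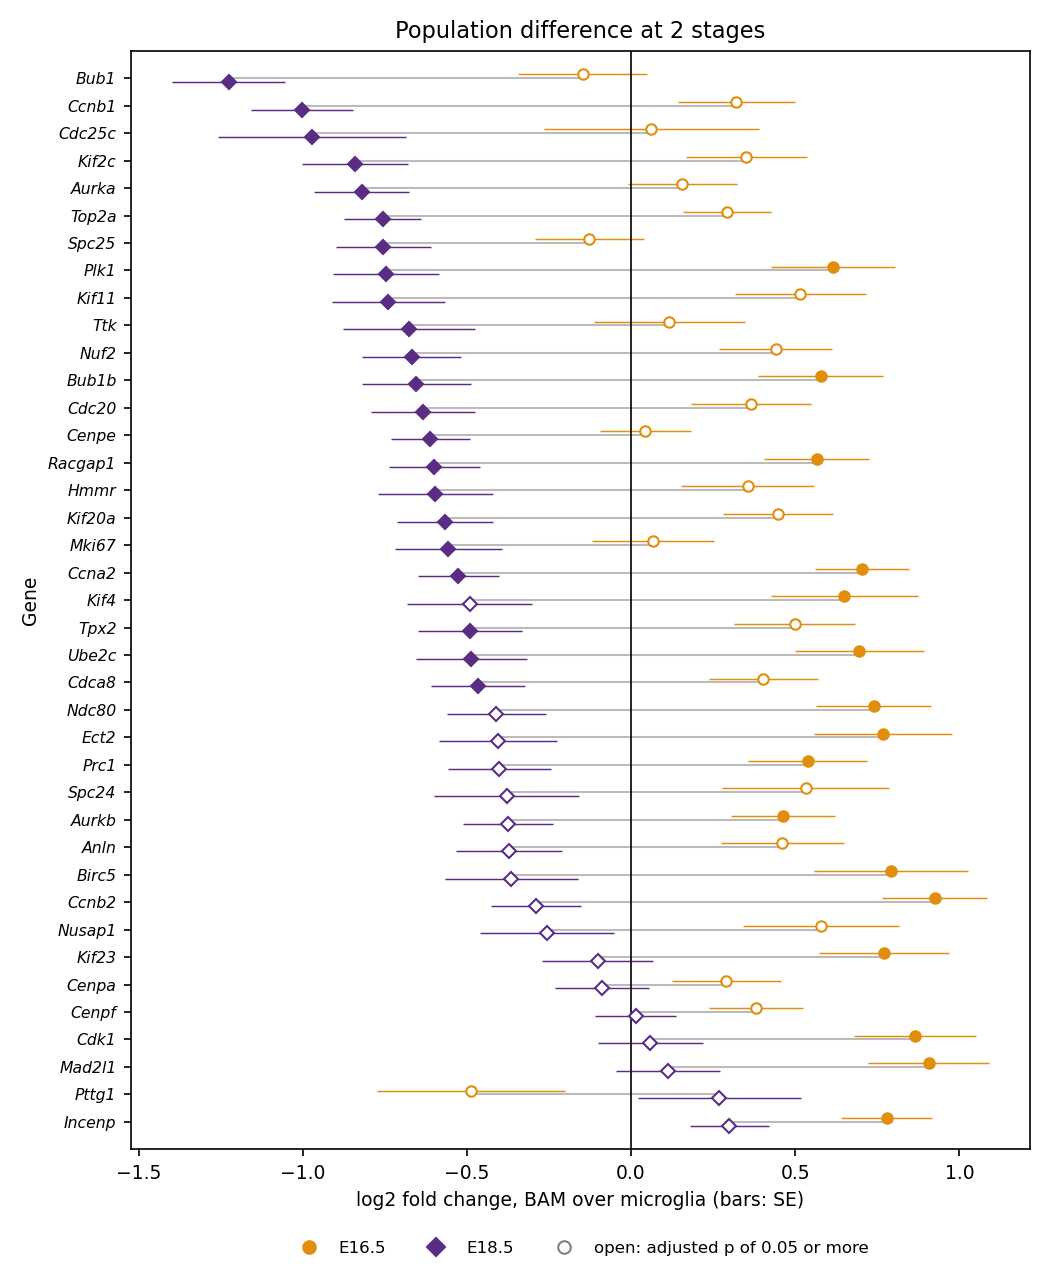
Log2 fold change of BAM over microglia for each of the 39 mitosis genes (x axis, bars for SE) at E16.5 (circles) and E18.5 (diamonds), filled where the adjusted p was under 0.05, with genes ordered by the E18.5 value. At E16.5 36 values lie above 0 and at E18.5 34 lie below it.

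The largest difference was in Bub1 (chromosome 2, 127801122 to 127831865, minus strand, GRCm38). It measured 44.6, 26.4, 31.3 and 31.99 CPM in E18.5 BAM, against 85.9, 68.6, 61.5 and 76.6 CPM in E18.5 microglia, so that the groups did not overlap. The log2 difference was -1.23 ± 0.17 (adjusted p = 1.15e-06). At E16.5 Bub1 had differed by -0.15 ± 0.20 (adjusted p = 0.747), at 36.7, 40.7 and 50.4 CPM in BAM and 42.7, 47.2 and 56.3 CPM in microglia. The other checkpoint proteins Bub1b (-0.65 ± 0.17, adjusted p = 0.00427) and Ttk (-0.68 ± 0.20, adjusted p = 0.0158) were also lower in BAM, whereas Mad2l1 differed by 0.11 ± 0.16 (adjusted p = 0.73).

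Ccnb1 (chromosome 13, 100778650 to 100786570, minus strand) measured 132, 81.1, 73.2 and 82.4 CPM in E18.5 BAM, against 224, 157, 157 and 148 CPM in microglia. The log2 difference was -1.002 ± 0.16 (adjusted p = 6.87e-06). The highest value of each population is its R10 library, yet no BAM library reached the lowest microglia library. Ccnb1 was the one gene of the 22 called lower under every alternative run, the comparison of 1 R10 library with the other included. The remaining entry genes were Cdc25c (-0.97 ± 0.29, adjusted p = 0.0152), Aurka (-0.82 ± 0.14, adjusted p = 4.97e-05), Plk1 (-0.75 ± 0.16, adjusted p = 0.000845) and Ccna2 (-0.53 ± 0.12, adjusted p = 0.00201). Plk1 measured 76.1, 46.3, 46.7 and 40.1 CPM in BAM, against 98.6, 67.0, 71.0 and 90.7 CPM in microglia, and here the R10 library of BAM reached into the microglia range. Ccnb2 was at 89.1, 87.6, 71.9 and 73.8 CPM in BAM against 90.8, 83.5, 91.6 and 103 CPM in microglia (-0.29 ± 0.14, adjusted p = 0.172). Cdk1 was at 111, 118, 124 and 121 CPM in BAM against 91.9, 97.4, 121 and 113 CPM in microglia (0.06 ± 0.16, adjusted p = 0.884), so the populations overlapped for the kinase and not for the cyclin Ccnb1.

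Top2a measured 244, 177, 168 and 201 CPM in E18.5 BAM, against 341, 283, 282 and 338 CPM in microglia (-0.76 ± 0.12, adjusted p = 5.4e-06), with no overlap. Mki67 measured 290.4, 223, 173 and 203 CPM in BAM, against 322, 278, 287 and 335 CPM in microglia (-0.56 ± 0.16, adjusted p = 0.0143), and the R10 library of BAM alone reached the microglia range. Cdc20 measured 128, 66.6, 82.2 and 87.7 CPM in BAM, against 156, 102, 129 and 138 CPM in microglia (-0.63 ± 0.16, adjusted p = 0.00347), again overlapping through that library. Ube2c, which works with Cdc20 in anaphase promotion, was also lower (-0.49 ± 0.17, adjusted p = 0.0469), a call lost under 13 of 17 alternatives.

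Of the motors, Kif11, which pushes the spindle poles apart, measured 87.6, 60.8, 56.6 and 67.1 CPM in E18.5 BAM, against 140, 85.5, 92.7 and 104 CPM in microglia (-0.74 ± 0.17, adjusted p = 0.00189). The microtubule depolymerase Kif2c differed by -0.84 ± 0.16 (adjusted p = 0.00016) without overlap, at 35.1, 29.0, 34.6 and 33.5 CPM in BAM and 64.2, 45.5, 51.8 and 58.6 CPM in microglia. Tpx2, which activates Aurka on the spindle, measured 87.9, 72.5, 52.6 and 69.9 CPM in BAM, against 100.3, 90.7, 79.7 and 101 CPM in microglia (-0.49 ± 0.16, adjusted p = 0.0294). Kif11 and Tpx2 each overlapped between the groups through the R10 library of BAM. Kif20a was lower by -0.57 ± 0.15 (adjusted p = 0.00483), and 33.2% of its exonic bases overlap Cdc23 on the opposite strand. Ube2c shares 22.8% of its exonic bases with Tnnc2, Kif4 15.1% with Pdzd11, Ccna2 12.49% with Exosc9 and Prc1 11.1% with Rccd1, also on the opposite strand. Whether reads were counted by strand is not given in the sources used here, so reads from an overlapping stretch may belong to either gene. The partner averaged 95.0 CPM beside 96.8 CPM for Kif20a, 41.4 beside 44.3 for Kif4 and 44.2 beside 179 for Ccna2, and for these pairs the reads cannot be told apart. Rccd1 averaged 4.34 CPM beside 89.6 for Prc1, and Tnnc2 was close to 0 beside 86.8 for Ube2c.

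At the kinetochore, Spc25 (-0.75 ± 0.14, adjusted p = 0.00017), Nuf2 (-0.67 ± 0.15, adjusted p = 0.00116) and the motor Cenpe (-0.61 ± 0.12, adjusted p = 0.000231) were lower in BAM. Ndc80, partner of Nuf2 and Spc25 in 1 complex, measured 39.5, 40.8, 28.4 and 26.7 CPM in BAM, against 41.6, 39.6, 44.1 and 43.2 CPM in microglia, and did not pass (-0.41 ± 0.15, adjusted p = 0.063). Cenpf measured 96.9, 89.1, 83.4 and 82.5 CPM in BAM, against 84.6, 80.4, 70.8 and 90.0 CPM in microglia (0.01 ± 0.12, adjusted p = 0.977). The populations overlapped for both genes. Anln measured 58.3, 54.9, 43.5 and 55.9 CPM in BAM, against 82.9, 54.7, 47.1 and 71.3 CPM in microglia, with the groups overlapping (-0.37 ± 0.16, adjusted p = 0.133). Aurkb measured 66.9, 78.6, 68.0 and 74.9 CPM in BAM, against 100.4, 64.1, 91.9 and 90.7 CPM in microglia (-0.37 ± 0.14, adjusted p = 0.0634), overlapping as well. Incenp went the other way, at 203, 168, 181 and 156 CPM in BAM against 140, 116, 136 and 145 CPM in microglia, a separation that did not pass the test (0.30 ± 0.12, adjusted p = 0.0947).

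Within series R8 alone, 3 E18.5 libraries of each population remained. There 17 members were lower in BAM and none higher, among 1332 genes lower and 1259 higher in all. The summed level there was 2468 CPM in BAM (2354 to 2537) against 3277 CPM in microglia (3039 to 3598). The R10 library of each population held more, 3158 CPM in BAM and 3853 CPM in microglia, and with 1 R10 library against the other, each assumed to vary like the other groups, 1 member was called lower. Leaving out single libraries gave 15 to 23 lower members.

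Each population was then followed over its last step, E18.5 against E16.5. In microglia 17 of 39 members rose and none fell, while 0.403% of all tested genes rose and 0.113% fell, so that 17 of the 89 genes that rose were members. The median member changed by 0.71 on the log2 scale, against -0.02 for all genes. In BAM no member was called in either direction by edgeR, against 0.0408% of all genes higher and 0.0272% lower. DESeq2 also called no member, among 33 genes higher and 16 lower in all. At an unadjusted p under 0.05 there were 1 member higher and 11 lower. All genes were not counted at that threshold, so these counts have no background share. The median member in BAM changed by -0.24, and 36 of 39 values were negative.

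The microglia genes that rose most were Ect2 (1.14 ± 0.20, adjusted p = 0.00279), Kif11 (1.12 ± 0.19, adjusted p = 0.00249) and Ccnb1 (1.11 ± 0.17, adjusted p = 0.00118). They act at different steps, Ccnb1 at entry, Kif11 at spindle formation and Ect2 at cytokinesis. Ect2 measured 68.9, 55.4, 42.6 and 43.2 CPM in E18.5 microglia, against 28.0, 28.5 and 22.3 CPM in E16.5 microglia. Kif11 measured 140, 85.5, 92.7 and 104 CPM in E18.5 microglia, against 57.7, 61.4 and 41.8 CPM in E16.5 microglia. In BAM, Kif11 measured 87.6, 60.8, 56.6 and 67.1 CPM at E18.5, against 79.8, 72.7 and 69.2 CPM at E16.5. The microglia stages did not overlap for Ect2, Kif11 or Ccnb1, and the BAM stages did.

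All 5 members of the kinesin group rose in microglia: besides Kif11 these were Kif4 (1.00 ± 0.21, adjusted p = 0.0152), Kif20a (0.93 ± 0.16, adjusted p = 0.00249), Kif23 (0.90 ± 0.19, adjusted p = 0.0137) and Kif2c (0.72 ± 0.18, adjusted p = 0.0468). The motor Cenpe, listed with the kinetochore and not in that group, was not called. In R8 libraries alone the calls of Kif2c (adjusted p = 0.186) and Kif4 (adjusted p = 0.114) were lost, and over all alternatives Kif2c lost its call in 11 of 14 and Kif4 in 7 of 14. Of the entry genes Ccna2 rose most surely (1.06 ± 0.14, adjusted p = 0.000129), at 143, 131, 119 and 137 CPM in E18.5 microglia against 69.6, 69.8 and 68.2 CPM at E16.5. Plk1 (1.05 ± 0.18, adjusted p = 0.00249), Ccnb2 (0.79 ± 0.15, adjusted p = 0.00707) and Aurka (0.78 ± 0.16, adjusted p = 0.0114) rose with it, while Cdk1 changed by 0.39 ± 0.17 (adjusted p = 0.399). Top2a (0.81 ± 0.13, adjusted p = 0.0012), Bub1b (0.96 ± 0.18, adjusted p = 0.00662), Ndc80 (0.91 ± 0.17, adjusted p = 0.00453), Racgap1 (0.84 ± 0.15, adjusted p = 0.0035), Cdc20 (0.82 ± 0.17, adjusted p = 0.0147) and Tpx2 (0.75 ± 0.17, adjusted p = 0.0368) completed the 17. The calls of Aurka (adjusted p = 0.0626) and Tpx2 (adjusted p = 0.0955) were also lost in R8 libraries alone. None of the 4 passenger complex genes was called.

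**Figure D5:**
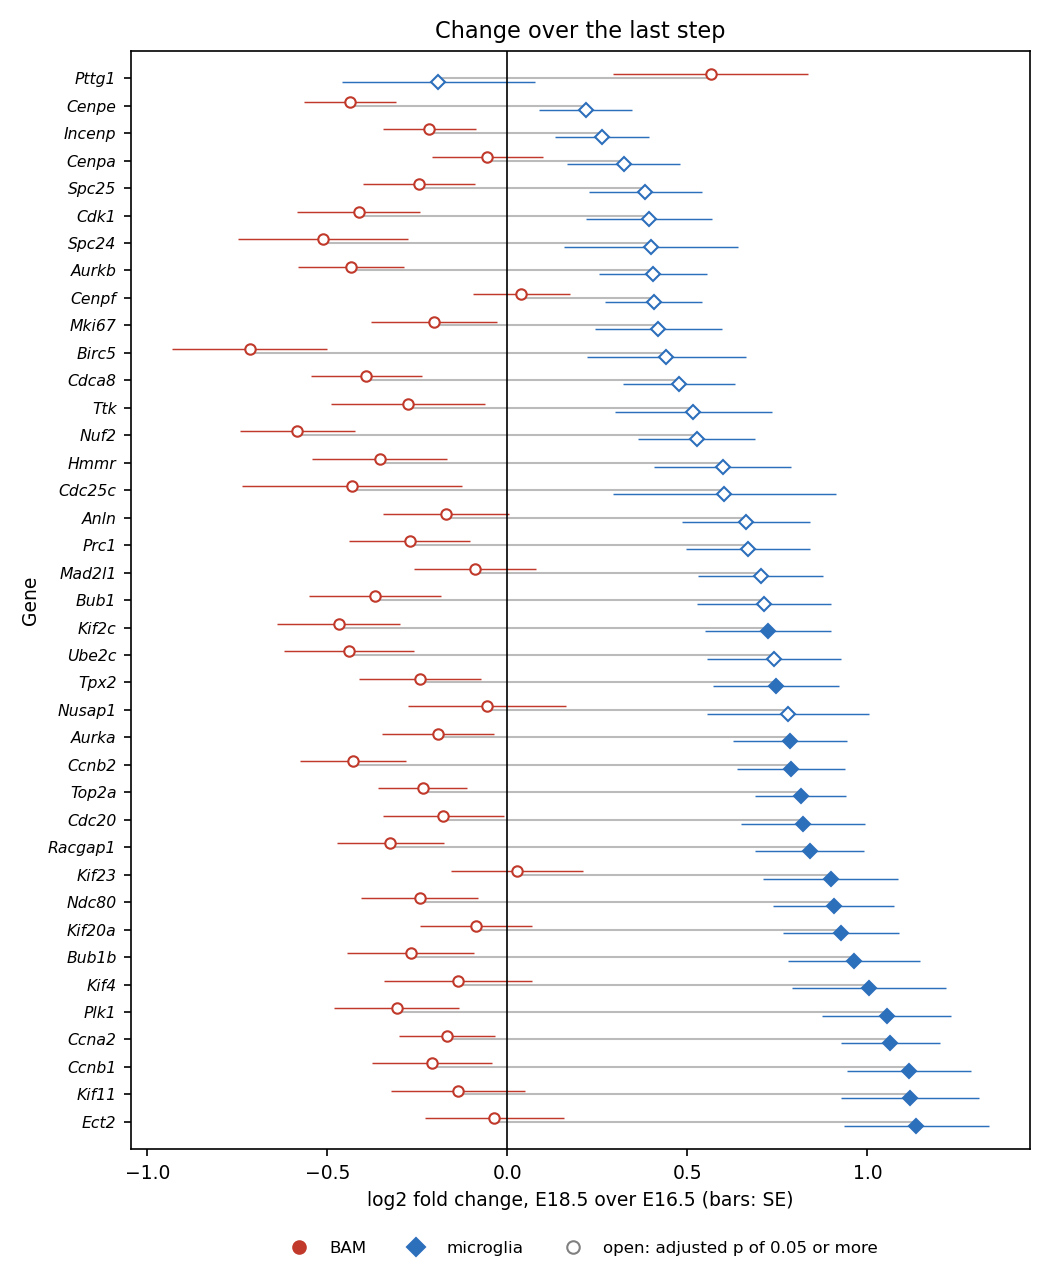
Log2 fold change of E18.5 over E16.5 for each of the 39 mitosis genes (x axis, bars for SE) in BAM (circles) and microglia (diamonds), filled where the adjusted p was under 0.05. In microglia 38 of 39 values lie above 0 and 17 are filled, and in BAM 36 of 39 lie below 0 and none is filled.

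Because a change called in one population and not in the other does not show that they differ, the change of the population difference was tested itself (BAM minus microglia at E18.5, less the same at E16.5). It was called lower for 14 of 39 members and higher for none, among 42 genes called lower in all, or 0.190% of those tested, with 0.00907% called higher. The median member changed by -0.99, against 0.07 for all genes. Plk1 had the largest shift (-1.36 ± 0.25, adjusted p = 0.00788), followed by Ccnb1 (-1.32 ± 0.24, adjusted p = 0.00707) and Kif11 (-1.25 ± 0.26, adjusted p = 0.03). Top2a (-1.05 ± 0.18, adjusted p = 0.00485), Ccna2 (-1.23 ± 0.19, adjusted p = 0.0024) and Ccnb2 (-1.22 ± 0.21, adjusted p = 0.006) were also called. The other called members were Bub1b, Kif2c, Ube2c, Racgap1, Ndc80, Nuf2, Kif20a and Aurka. Bub1, which differed most at E18.5, was not called here (-1.08 ± 0.26, adjusted p = 0.0829). Pttg1 was the sole member with a positive value (0.76 ± 0.38, adjusted p = 0.64).

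In R8 libraries alone, 13 members rose in microglia between E16.5 and E18.5, among 49 genes that rose in all. In the population difference 17 members shifted lower, among 50 genes in all. A fit restricted to the groups compared kept the medians (0.71 and -1.01) but called 3 genes in all for each, 1 of them a member. Of the 17 microglia calls only Ccna2 held under every alternative run. None of the 14 calls in the population difference did. The microglia count was 11 without any of its E16.5 libraries or E18.5 replicate 1. In those runs 34 to 47 genes rose in all, where the main fit called 89. The count for the population difference was 4 without BAM E16.5 replicate 3, 5 without microglia E16.5 replicate 2, 6 without microglia E18.5 replicate 1 or BAM E18.5 replicate 3 or 4, 7 without microglia E16.5 replicate 1 or BAM E16.5 replicate 2, 9 without BAM E18.5 replicate 2 and 23 without microglia E18.5 replicate 2. Lower calls among all genes moved the same way, where the main fit had 42. They numbered 11 without BAM E16.5 replicate 3, 13 without microglia E16.5 replicate 2 and 18 without microglia E18.5 replicate 1. Without microglia E18.5 replicate 2 they numbered 86.

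Counted by their calls at the 2 stages, Bub1b, Ccna2, Plk1, Racgap1 and Ube2c were higher in BAM at E16.5 and lower at E18.5, the Ube2c call at E18.5 being lost under 13 of 17 alternatives. Their E16.5 calls were lost under 5 of 13 alternatives for Bub1b, 4 for Plk1, 3 for Racgap1 and 2 for Ube2c. Only the Ccna2 call at E16.5 held under every alternative. A further 11 were higher at E16.5 without passing at E18.5, among them Aurkb, Birc5 and Incenp of the passenger complex and the cytokinesis genes Ect2 and Prc1. Another 17 were lower at E18.5 without passing at E16.5, among them Ccnb1, Cdc25c, Aurka, Bub1, Ttk, Cdc20, Mki67 and Top2a. The remaining 6, Anln, Cenpa, Cenpf, Nusap1, Pttg1 and Spc24, were called at neither stage. These lists do not show that members differ from each other, since 38 of 39 had a negative value in the change of the population difference. The E16.5 and E18.5 comparisons use separate libraries but a shared estimate of spread. The same E16.5 microglia libraries enter the E16.5 comparison, the last step in microglia and the change of the population difference, so these results are not independent.

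Among 62 further mitosis genes, 10 were higher and none lower in BAM at E16.5, with a median of 0.26, against 16 of 39 members with a median of 0.46. At E18.5, 1 was higher and 30 lower, with a median of -0.55, against 22 of 39 members lower with a median of -0.49. At E16.5 they included the condensin subunit Ncaph (1.09 ± 0.18, adjusted p = 1.97e-05), and at E18.5 Iqgap3 (-1.25 ± 0.17, adjusted p = 4.85e-07), Ckap2l (-0.94 ± 0.14, adjusted p = 1.59e-06) and the centrosome kinase Nek2 (-1.21 ± 0.18, adjusted p = 3.56e-06), against Zwint, a kinetochore protein (0.49 ± 0.12, adjusted p = 0.00334). Over the last step 8 of them rose in microglia and none was called in BAM, and 8 shifted lower in the population difference, led by Nek2 (-1.71 ± 0.28, adjusted p = 0.00366).

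Genes of DNA replication, which act one phase earlier in the cell cycle, overlapped with this pattern in part. Of 40, 20 were higher in BAM at E12.5, where 6 of 39 mitosis genes were, and 13 at E16.5, among them the origin licensing factor Cdc6 (1.36 ± 0.20, adjusted p = 4.79e-06), with none lower. At E18.5 7 were lower in BAM, among them the ribonucleotide reductase subunit Rrm2 (-1.05 ± 0.15, adjusted p = 2.62e-06), and none higher, where 22 of 39 mitosis genes were lower. In microglia 2 rose over the last step and in BAM 1 fell, the chromatin assembly factor Chaf1a (-0.69 ± 0.14, adjusted p = 0.0396). In the change of the population difference 5 of 40 were lower and all 40 values were negative, with a median of -0.69, where the mitosis genes had 14 of 39 lower and a median of -0.99. The mitosis sum divided by the replication sum averaged 1.03 ± 0.03 in E18.5 BAM and 1.16 ± 0.05 in E18.5 microglia (SD, n = 4 each), against 0.92 ± 0.03 in E16.5 BAM and 0.96 ± 0.06 in E16.5 microglia (n = 3 each). The E18.5 ratios did not overlap (at most 1.08 in BAM, at least 1.11 in microglia), nor did they at E12.5 (at most 0.945 in BAM, at least 1.0005 in microglia) or at E14.5 (at most 0.993 in BAM, at least 1.04 in microglia). At E16.5 they overlapped (0.888 to 0.954 in BAM, 0.905 to 1.03 in microglia).

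Markers of other cell types moved with these comparisons and their part in the results was not tested. In E18.5 BAM, the summed level of 8 endothelial markers ran from 79.5 to 340.0 CPM, that of 8 mesenchymal and mural markers from 195 to 703 CPM, and that of 10 neural markers from 162 to 413 CPM. In E18.5 microglia these sums ran from 62.6 to 167, from 117 to 244 and from 141 to 263 CPM. In E16.5 BAM they ran from 71.2 to 89.2, from 151 to 293 and from 144 to 278 CPM, and in E16.5 microglia from 129 to 135, from 85.6 to 337 and from 243 to 434 CPM. For the change of the population difference, all 8 endothelial, all 8 mesenchymal and all 10 neural markers had positive values with none called, opposite in sign to 38 of 39 mitosis genes. The 8 general macrophage markers all had negative values there, with none called and a median of -0.24. In BAM against microglia at E18.5 all 8 were negative and 3 were called, with a median of -0.42. At E16.5, 5 were negative and 3 positive, with 1 called lower and a median of -0.19. Of the 10 neural markers, Sox2 and Sox1 did not exceed 2.84 CPM in any library and were at 0 in some libraries of each population. Hes5 and Pax6 reached at most 9.22 and 17.1 CPM, Elavl3 48.4, Stmn2 53.1, Fabp7 89.8, Dcx 120.3, Nes 306 and Tubb3 399 CPM. At the first step, E11.5 against E10.5, 4 of 8 mesenchymal and mural markers and 1 of 8 erythroid markers rose in BAM, with medians of 2.63 and 0.51. In microglia 3 of 8 erythroid and 2 of 8 mesenchymal and mural markers rose there, with medians of 0.93 and 0.25. Over the last step in microglia the 8 erythroid markers all had negative values with none called and a median of -0.94, and their sum ran from 196 to 290 CPM at E18.5 against 304 to 598 CPM at E16.5.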

How the data were processed

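Bulk RNA from sorted BAM and microglia was amplified by a modified SMART-seq2 protocol, made into Nextera XT libraries and sequenced paired-end on an Illumina HiSeq, per the labels' protocols. The authors deposited raw counts per gene for 39 libraries, made with STAR and featureCounts on GRCm38, per the submitters' processing notes; the settings for strand and read pairs are not given in the sources used here. Counts of 2 (49977 values) outnumber counts of 1 (21280), so both reads of a pair appear to be counted, and counting error is larger than the counts alone would give. Spike-ins were not used.

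Counts were tested with edgeR 4.0.16 (R 4.3.3): TMM factors, filterByExpr (22061 of 53379 genes kept, 99.973% of counts), 1 coefficient for each of 12 groups over 39 libraries, quasi-likelihood F tests with 27 residual degrees of freedom, and Benjamini-Hochberg adjustment over all tested genes with calls at 0.05. The SE is the log2 fold change divided by the square root of F. CPM are counts over library totals of 10.7 to 47.2 in units of 1000000 counts. The fit was tested on simulated data, but no outcome is given here and no result rests on that test. Alternatives were DESeq2 1.42.0, RLE factors, no filter, a series covariate, only the groups compared, a block on library numbers, E18.5 libraries of either series left out, and each library left out.

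The members, marker lists and tests were chosen with earlier results of these data known. Any member could be named. Library values were given for a panel of members from every role, and in each comparison the 3 called members with the largest change were named, with up to 3 genes by smallest p from the other lists. No replicate pair agreed within counting noise (lowest chi-square per gene 16.22). Promoters came from RefSeq (GRCm38.p6), matched by symbol.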

Additional observations from a re-analysis of the deposited data

Results flagged for a closer look

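The change of the population difference (BAM minus microglia at E18.5, less the same at E16.5) passed the edgeR quasi-likelihood test for 14 mitosis genes, all with negative log2 values. None of the 14 was called under every alternative run. The entry genes were Plk1 (-1.36), Ccnb1 (-1.32), Ccna2 (-1.23), Ccnb2 (-1.22) and Aurka (-0.98). The motors were Kif11 (-1.25), Kif2c (-1.19) and Kif20a (-1.01), and the kinetochore genes were Ndc80 (-1.15) and Nuf2 (-1.11). The others were the checkpoint gene Bub1b (-1.23), the ubiquitin enzyme Ube2c (-1.18), the cytokinesis gene Racgap1 (-1.16) and Top2a (-1.05).

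For 14 members and the summed level of all 39, each in the 4 groups of 4 libraries, 60 sets of 4 values were examined and 5 held a library far from the other 3, where chance gives about 1 in 20. Ccnb1 stood at 132 CPM in BAM E18.5 replicate 1, with the others between 73.2 and 82.4 CPM, and at 224 CPM in microglia E18.5 replicate 1, with the others between 148 and 157 CPM. Both of these are the series R10 libraries of that stage. Plk1 stood at 264 CPM in BAM E10.5 replicate 1, against 210.4 to 218 CPM in the others. Ndc80 stood at 113 CPM in the same library, against 93.0 to 95.7 CPM, and at 71.2 CPM in microglia E10.5 replicate 2, against 87.1 to 89.5 CPM.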

How the results depend on the processing

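With single libraries left out, the members higher in BAM numbered 0 to 4 at E11.5, 2 to 9 at E12.5 and 7 to 15 at E16.5, and those lower 0 to 1 at E14.5 and 15 to 23 at E18.5. Calls among all genes, in either direction, numbered 1105 to 1268 at E11.5, 1378 to 1769 at E12.5 and 2226 to 2705 at E16.5. They numbered 826 to 1402 at E14.5 and 2880 to 3079 at E18.5. For E11.5 against E10.5 the lower members numbered 0 to 1 in BAM and 8 to 14 in microglia, and for E16.5 against E12.5 8 to 28 in BAM and 18 to 23 in microglia. All calls in either direction numbered 629 to 1017, 1378 to 1748, 654 to 878 and 446 to 884 there, in that order. For E18.5 against E16.5 the members higher in microglia numbered 11 to 25, and those lower in the population difference 4 to 23. All calls in either direction ran from 37 to 235 in microglia and from 11 to 89 in the population difference.

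With only the groups compared in the fit, the counts were 0 higher at E11.5, 3 higher at E12.5, 0 lower at E14.5, 1 higher in microglia over the last step and 1 lower in the population difference. DESeq2 called 1 member higher at E10.5, 10 at E11.5 and 1 at E18.5. It called 2 lower at E14.5, 3 lower in BAM between E10.5 and E11.5 and 25 lower in the population difference. DESeq2 also called more of all genes. Those higher numbered 850, 1019 and 1861 at E10.5, E11.5 and E18.5, where the main fit called 512, 626 and 1478. Those lower numbered 954, 711 and 120 in the other comparisons, in that order, where the main fit called 718, 318 and 42. For that BAM step RLE factors gave 2, no filter 0 and the series covariate 3, and the series covariate gave 10 higher at E12.5. RLE factors also gave 1 higher at E18.5, and leaving out the R8 libraries of E18.5 gave 1 lower. With TMM sizes the summed levels were 3173 CPM in E14.5 BAM, 3377 CPM in E14.5 microglia and 3778 CPM in E12.5 microglia. The cause was not tested for these shifts, except that fewer samples enter some fits.

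Whether adjacent library numbers pair the samples is not settled, and the main tests used no pairing. Deviations from the group means correlated weakly in the 19 pairs, all positively (2e-04 to 0.194, median 0.0736, 6 above 0.1). As a replicate block they gave 8 members higher at E11.5, 14 at E12.5, 22 at E16.5 and 1 at E18.5. Among all genes 818, 1130, 1831 and 1666 were higher at these stages. The block gave 24 members lower at E18.5 and 22 lower in the population difference, among 2159 and 101 genes lower in all.

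Single libraries turned the sign of 2 genes that were not called. With 1 library left out, Cenpf at E18.5 ranged from -0.0363 (without microglia replicate 3) to 0.0549 and was also negative without BAM replicate 1 (-0.0311) or 2 (-0.0069). Mki67 at E16.5 ranged from -0.1064 (without microglia replicate 3) to 0.3423. Intervals and tests here cover the spread between these libraries only.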
